A study of Mus musculus with 27 samples.

Results

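The gene for p53, Trp53, and 9 genes that p53 is known to activate were followed in mouse embryonic stem cells (mESCs) after knockdown (KD) of Gas41 and during differentiation. The 10 genes are Trp53, Mdm2, Cdkn1a, Ccng1, Bax, Bbc3, Pmaip1, Phlda3, Sesn2 and Zmat3. They were found by symbol among the 27080 genes listed in the deposited count tables, 1 row for each, by a rule that uses no measured value, although the genes were proposed with earlier results of these data known. Gas41, encoded by Yeats4, is a YEATS domain protein that is described as a brake on p53 in other cells, so the comparison asks whether p53 target mRNAs rise when Gas41 is reduced.

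p53 is a DNA-binding transcription factor that stress stabilises. Mdm2, itself a p53 target, tags p53 for degradation, so the pair forms a feedback loop that acts mainly on the p53 protein and not on Trp53 mRNA. Active p53 raises genes that stop the cell cycle, start apoptosis or limit growth signals. In mESCs p53 is known to be abundant, and its activation is known to favour differentiation over self-renewal.

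The 12 RNA-seq libraries came from J1 mESCs, a mouse line kept without feeders on gelatin with serum and leukemia inhibitory factor (LIF). The cells carried lentiviral pLKO vectors that express a short hairpin RNA and were selected with puromycin. Control cells with a non-targeting hairpin (shNT) gave 3 libraries, shGas41-1 gave 3 and shGas41-2 gave 2, all harvested 8 days after infection. A further pair of libraries came from control-vector cells kept undifferentiated with LIF, called EB day 0, and another pair from the control-vector cells grown without LIF as embryoid bodies (EBs) to day 6. An EB is an aggregate that holds several cell types, and in such bulk RNA fewer cells of a type and less RNA per cell cannot be told apart.

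Some of the p53 target genes carry a recognisable p53 element close to their start. The genome was searched for the p53 response element, 2 abutting decamers that each hold a CNNG core with A or T at both N positions, within 5000 bases of each annotated gene start and with at most 2 mismatches in the 12 positions that flank the cores. The element reads the same in kind on both strands. Of the 10 genes, 4 held at least 1 such element, against 6.3% of 22380 protein-coding genes. With at most 1 mismatch, 3 of the 10 genes and 1.26% of all genes held one. The elements of Cdkn1a, Ccng1 and Zmat3 are printed to show the DNA motif that p53 is known to bind near such genes. The fourth gene was Pmaip1, whose element had 2 mismatches and is not printed. Capitals mark both cores, and each is given 5′ to 3′ in the direction of its gene.
Cdkn1a: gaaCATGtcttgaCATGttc
Ccng1: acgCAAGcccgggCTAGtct
Zmat3, intronic: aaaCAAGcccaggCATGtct
Zmat3, upstream: gagCAAGtctgggCTTGtta
In the mm9 build the Cdkn1a element lies at chr17:29227873-29227892, 51 bases upstream of the annotated start of the gene and on its plus strand, with 1 mismatch. The Ccng1 element lies at chr11:40568438-40568457 in an intron, 356 bases downstream of the start of this minus-strand gene, also with 1 mismatch. The intronic Zmat3 element, at chr3:32263253-32263272 and 1328 bases downstream of the start, had 0 mismatches, and the second, at chr3:32269073-32269092, lay 4492 bases upstream with 1. A match of letters is a description and does not show binding.

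The libraries held between 59224537 and 81524773 counts, and the members between 677 and 40075 counts in each. Levels are given as CPM, that is counts scaled to one library size, after adjustment of the library sizes by the trimmed mean of M values (TMM). Yeats4 was at 61.2, 53.2 and 50.9 CPM in shNT, at 3.46, 4.38 and 5.1 CPM with shGas41-1, and at 8.8 and 7.95 CPM with shGas41-2. Both hairpins thus lowered their target, with log2 fold changes of -3.66 (SE 0.19, FDR 3.7e-04) and -2.71 (SE 0.13, FDR 9.3e-04) in edgeR's quasi-likelihood test, where FDR is the p-value adjusted over all tested genes. Replicate 3 of shGas41-1 stood apart from its group. The chi-square of its counts against replicates 1 and 2, divided by the degrees of freedom, was 144 and 236, where every other pair of libraries of 1 group gave between 29.2 and 81.3. In that library 3 of the 10 genes (Mdm2, Ccng1, Bax) were above and the other 7 below both other shGas41-1 libraries. The share of all genes outside both other libraries was not counted, so this split is not read as a trait of the 10. Values without that library are given beside the comparisons of shGas41-1 with shNT. The 7 pluripotent cell markers summed to between 5635 and 6043 CPM in shNT, between 5237 and 6598 CPM with shGas41-1, between 5885 and 5949 CPM with shGas41-2 and between 5047 and 5508 CPM at EB day 0, and fell to between 1335 and 1682 CPM at EB day 6. The 8 EB lineage markers summed to at most 31.9 CPM in undifferentiated and KD cells and to between 1128 and 1633 CPM at EB day 6. The 7 fibroblast markers summed to between 6.72 and 31.2 CPM over all libraries, and Dcn and Lum were at 0 in every shNT, shGas41-2 and EB day 0 library.

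Per kilobase of exon, Trp53 and Bax were the most abundant of the 10 mRNAs in shNT cells, both at 114 CPM per kb (SD 10.7 and 11.9, n = 3), and did not differ beyond their spread. Ccng1 followed at 67.7 CPM per kb and Phlda3 at 45.5, each clear of its neighbours. Sesn2 (24.7), Cdkn1a (23.8) and Mdm2 (21.8 CPM per kb) overlapped in that order. Zmat3 (10.8), Pmaip1 (10.1) and Bbc3 (9.46 CPM per kb) were the lowest and also overlapped. The mRNAs of 2 BH3-only killers, Bbc3 and Pmaip1, were thus at the bottom of the order, and that of the effector Bax at the top. At EB day 0 Pmaip1 had the lowest mean of the 10, at 9.55 ± 1.53 CPM per kb (SD, n = 2), and overlapped Bbc3 at 12.3 ± 3.99. At EB day 6 Pmaip1 reached 60.2 ± 16.3 CPM per kb and overlapped Bax at 60.6 ± 1.16.

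**Figure D1:**
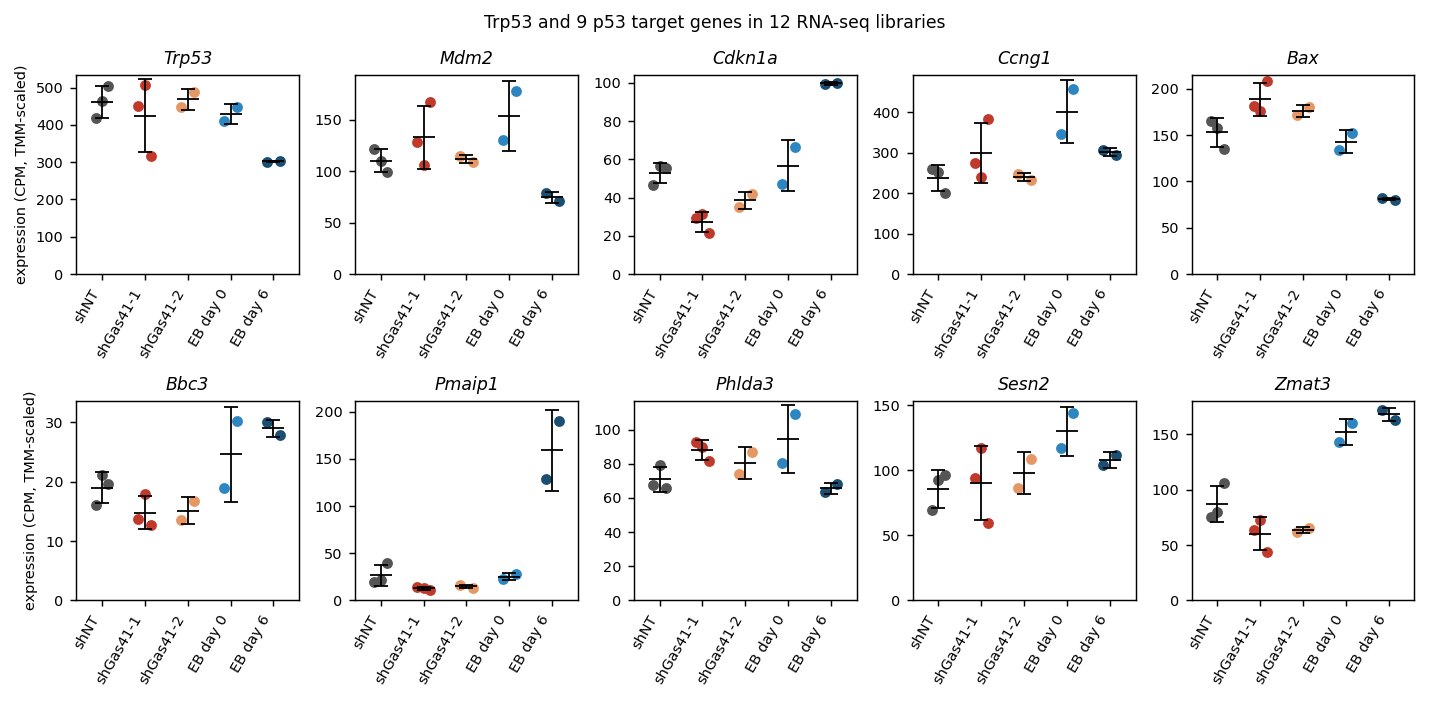
Expression of Trp53 and 9 p53 target genes in 12 libraries; each panel is 1 gene, the y axis is TMM-scaled CPM from 0, each point is 1 library, and bars are the group mean ± SD (n = 3 for shNT and shGas41-1, n = 2 for the other groups). Cdkn1a, Pmaip1 and Zmat3 lie lower in every KD library than in every shNT library, and Bax lies higher. The share of all genes separated in this way was not counted. Cdkn1a, Pmaip1 and Zmat3 are each highest at EB day 6, Zmat3 by a small margin over EB day 0.

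None of the 10 genes passed the test as higher with either hairpin, and 2 passed as lower with one. With shGas41-1, 2 of the 10 genes fell, Cdkn1a and Pmaip1, and 0 rose at an FDR of 0.05 or less, when 7.73% of 18274 tested genes fell and 10.8% rose. Without adjustment, 3 had a p under 0.05 in the lower direction (Cdkn1a, Pmaip1, Zmat3) and 2 in the higher (Bax, Phlda3), and DESeq2 also called 0 higher. Over all genes, 6405 of 18274 had an unadjusted p under 0.05 in either direction, and DESeq2 called 2415 of 20803 higher. With shGas41-2, 0 of 10 passed in either direction in edgeR's quasi-likelihood test, beside 3.97% of 18405 genes that fell and 5.94% that rose. There 3 of the 10 had an unadjusted p under 0.05, all lower (Cdkn1a, Pmaip1, Zmat3), and DESeq2 called 2 lower (Cdkn1a and Pmaip1, adjusted p = 0.0182 for both) and 0 higher. Of all genes, 5209 of 18405 had an unadjusted p under 0.05 in either direction. DESeq2 called 1422 of 18860 genes lower and 1462 higher. Without shNT replicate 1, 3 passed as lower with shGas41-2 in edgeR's test: Cdkn1a (log2 fold change -0.52, FDR 0.00873), Pmaip1 (-1.03, FDR 0.00544) and Zmat3 (-0.53, FDR 0.0134). In that fit 1933 of 18327 genes passed as lower and 2198 as higher. The median log2 fold change of the 10 genes was -0.01 with shGas41-1 and 0.02 with shGas41-2, beside 0.02 and -0.01 over all tested genes. Both KDs were compared with the same shNT libraries, so they are not independent of each other.

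Cdkn1a (mm9 chr17:29227924-29237667, plus strand) encodes p21, the inhibitor of cyclin-dependent kinases through which p53 stops the cell cycle. Its level was 46.7, 56.6 and 55.3 CPM in the shNT libraries, 29.3, 31.4 and 21.5 CPM with shGas41-1, and 35.3 and 41.8 CPM with shGas41-2. All KD libraries lay below all shNT libraries. The log2 fold change was -0.93 (SE 0.17, FDR 0.00782), a 1.9-fold fall, with shGas41-1, and -0.79 (FDR 0.00532) without its replicate 3. With shGas41-2 it was -0.45 (SE 0.13, FDR 0.0652, 95% interval -0.75 to -0.15), which missed the threshold.

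Pmaip1 encodes Noxa, a BH3-only protein that neutralises Mcl1. The shNT libraries gave 19, 21.8 and 39.5 CPM, the shGas41-1 libraries 13.9, 13.3 and 11.1 CPM, and the shGas41-2 libraries 16.1 and 13.5 CPM. Again no KD library reached the lowest control, but shNT replicate 3 was far above the others. The log2 fold change with shGas41-1 was -1.04 (SE 0.26, FDR 0.0257), the only 2-fold change among the 10 genes, where 2.4% of all tested genes passed the test and fell at least 2-fold. It was -0.67 (FDR 0.0504) without shNT replicate 3, -1.10 (FDR 0.0724) without shGas41-1 replicate 1 and -0.97 (FDR 0.051) without shGas41-1 replicate 3, so the call rests on each of these libraries. With shGas41-2 the change was -0.85 (SE 0.30, FDR 0.109).

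Trp53 itself (chr11:69393861-69405375, plus strand) was at 417, 465 and 504 CPM in shNT, 450, 508 and 316 CPM with shGas41-1, and 448 and 487 CPM with shGas41-2. The groups overlapped, and only shGas41-1 replicate 3 lay below the controls. The log2 fold change was -0.10 (95% interval -0.51 to 0.30, FDR 0.715) and 0.02 (95% interval -0.21 to 0.26, FDR 0.902) with shGas41-1 and shGas41-2, and the first was 0.06 without replicate 3. These counts say nothing of p53 protein.

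Among the genes of the feedback on p53, Mdm2 (chr10:117125944-117147814, minus strand) was at 122, 110 and 99.7 CPM in shNT, 128, 106 and 167 CPM with shGas41-1, and 115 and 109 CPM with shGas41-2. Ccng1 (chr11:40562054-40568813, minus strand), whose product cyclin G1 recruits a phosphatase to Mdm2, was at 260, 252 and 201 CPM, at 276, 240 and 384 CPM, and at 247 and 234 CPM in the same order. For both, the one KD library above the controls by a wide margin was shGas41-1 replicate 3. The shGas41-1 log2 fold change was 0.29 (SE 0.18, FDR 0.288) for Mdm2 and 0.35 (SE 0.20, FDR 0.234) for Ccng1, and 0.09 and 0.12 without that library. With shGas41-2 the values were 0.03 (95% interval -0.23 to 0.28) for Mdm2 and 0.02 (95% interval -0.26 to 0.31) for Ccng1.

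The other apoptosis genes did not pass the test. Bax (chr7:52717065-52722268, minus strand), a pore-forming effector of apoptosis, was at 165, 158 and 135 CPM in shNT, 181, 176 and 209 CPM with shGas41-1, and 172 and 180 CPM with shGas41-2. Each KD library was above each control, yet the log2 fold changes of 0.33 (SE 0.14, FDR 0.132) and 0.21 (SE 0.11, FDR 0.246) missed the threshold, and the first was 0.23 without replicate 3 of shGas41-1. Bbc3 (chr7:16894965-16903554, plus strand), which encodes the BH3-only protein Puma, was at 16.1, 21.2 and 19.7 CPM, at 13.8, 17.9 and 12.7 CPM, and at 13.5 and 16.8 CPM in the same order. Its groups overlapped, with log2 fold changes of -0.34 (SE 0.17, FDR 0.203) and -0.32 (SE 0.16, FDR 0.225), the first -0.25 without that library.

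The p53 targets that restrain growth signals or bind RNA did not pass either. Phlda3 (chr1:137662696-137665713, plus strand), an inhibitor of Akt, was at 67.5, 79.2 and 65.9 CPM in shNT, 92.6, 89.6 and 81.4 CPM with shGas41-1 and 74 and 87.1 CPM with shGas41-2. Its levels with shGas41-1 were above those of all controls (log2 fold change 0.33, SE 0.13, FDR 0.106, and 0.37 without replicate 3 of shGas41-1), while those with shGas41-2 overlapped them (0.19, SE 0.12, FDR 0.342). Sesn2 (chr4:132047947-132066416, minus strand), a stress-induced inhibitor of mTORC1, was at 69.1, 92.5 and 96.1 CPM, at 94.1, 117 and 59.8 CPM, and at 86.2 and 109 CPM, with overlap throughout and log2 fold changes of 0.09 (SE 0.23, 0.30 without that library) and 0.19 (SE 0.16). Zmat3 (chr3:32233718-32264600, minus strand), which encodes an RNA-binding zinc finger protein, was at 75, 80.1 and 106 CPM, at 63.9, 72.9 and 44.1 CPM, and at 62.1 and 65.8 CPM. All KD libraries were below the controls for Zmat3, with log2 fold changes of -0.51 (SE 0.20, FDR 0.114) and -0.44 (SE 0.15, FDR 0.108). The first was -0.34 (FDR 0.165) without replicate 3 of shGas41-1, and passed in a fit over 12 libraries (-0.53, FDR 0.041).

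The hairpins were also compared with each other, to ask whether they gave different levels. None of the 10 genes differed between shGas41-2 and shGas41-1 at an FDR of 0.05 or less, and 0% of 19146 genes did in edgeR's quasi-likelihood test, although 1348 had an unadjusted p under 0.05 and DESeq2 called 95 higher and 69 lower, none of them among the 10. Only Cdkn1a had an unadjusted p under 0.05 among the 10, with a level 1.39-fold higher with shGas41-2 (log2 difference 0.47, 95% interval 0.08 to 0.87, FDR 0.614). For Pmaip1 the log2 difference was 0.20 (95% interval -0.41 to 0.80), for Zmat3 0.07 (-0.40 to 0.54) and for Ccng1 -0.34 (-0.80 to 0.12), intervals that leave room for sizeable differences. No library was left out of this comparison. In shGas41-1 replicate 3 Cdkn1a was at 21.5 CPM, against 29.3 and 31.4 CPM in replicates 1 and 2. Ccng1 was there at 384 CPM, against 276 and 240 CPM. Yeats4 was 1.92-fold higher with shGas41-2 (FDR 0.198).

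**Figure D2:**
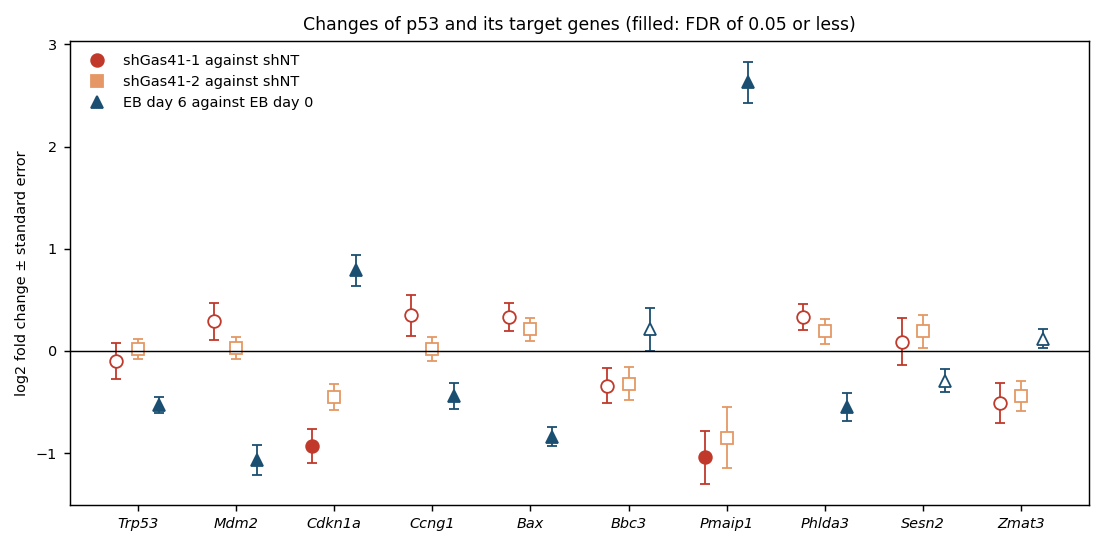
Log2 fold change ± standard error of each gene with shGas41-1 (circles) and shGas41-2 (squares) against shNT and at EB day 6 against EB day 0 (triangles); filled symbols have an FDR of 0.05 or less. Cdkn1a, Pmaip1, Zmat3 and Bbc3 lie below 0 with both hairpins and above 0 in EBs, Zmat3 and Bbc3 with open symbols throughout. Mdm2, Bax, Ccng1, Phlda3, Trp53 and, with an open symbol, Sesn2 lie below 0 in EBs.

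At EB day 6 the 10 genes changed in both directions. Pmaip1 and Cdkn1a rose, and Mdm2, Bax, Phlda3, Trp53 and Ccng1 fell, which is 2 genes higher and 5 lower of 10, where 30.5% of 18287 tested genes rose and 28.4% fell, so the count called is near that of genes at large. By the 2-fold rule Pmaip1 was higher and Mdm2 lower, beside 16.6% and 14.7% of all genes. The median log2 fold change of the 10 was -0.37, against 0.00 over all tested genes. The EB lineage markers rose and the pluripotent cell markers fell in the same libraries (sums above), and their part in these values was not tested.

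Pmaip1 showed the largest change of the 10, from 22.4 and 28.1 CPM at EB day 0 to 129 and 190 CPM at day 6, a 6.21-fold rise (log2 fold change 2.63, SE 0.20, FDR 9.9e-05). Cdkn1a went from 47.1 and 66.2 CPM to 99.2 and 100 CPM, a 1.73-fold rise (log2 fold change 0.79, SE 0.15, FDR 0.00474). The day 6 libraries of both genes lay above those of day 0.

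Trp53 fell from 411 and 449 CPM to 301 and 303 CPM (log2 fold change -0.53, SE 0.08, FDR 0.00186). Mdm2 fell from 130 and 178 CPM to 78.4 and 70.8 CPM, 2.1-fold (log2 fold change -1.07, SE 0.15, FDR 0.0013), and Bax from 134 and 152 CPM to 82.2 and 80 CPM, 1.79-fold (log2 fold change -0.84, SE 0.09, FDR 3.7e-04). The p53 gene, its main inhibitor and a pore-forming effector were thus all lower in EBs while p21 and Noxa mRNAs were higher.

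Smaller falls were those of Phlda3, from 80.7 and 109 CPM to 63.5 and 68 CPM (log2 fold change -0.55, SE 0.14, FDR 0.0149), and of Ccng1, from 347 and 458 CPM to 308 and 294 CPM (-0.44, SE 0.13, FDR 0.0278). Both calls rested on replicate 3 of EB day 0, without which the changes were -0.32 (FDR 0.091) and -0.23 (FDR 0.147). In that library 10 of 10 members were higher than in the other EB day 0 library. The share of all genes that were higher there was not counted, so this is not read as a trait of the 10. Sesn2 was at 117 and 144 CPM at day 0 and 104 and 112 CPM at day 6 (-0.29, SE 0.11, FDR 0.0606), Zmat3 at 143 and 160 CPM and then 172 and 163 CPM (0.12, SE 0.09, FDR 0.26), and Bbc3 at 19 and 30.3 CPM and then 30 and 27.9 CPM (0.21, SE 0.21, FDR 0.407). These 3 did not pass the test. Sesn2 passed as lower without EB day 0 replicate 2 (-0.44, FDR 0.0382) or EB day 6 replicate 3 (-0.34, FDR 0.0216).

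The change with each hairpin was then tested against the change in EBs in 1 fit of all 12 libraries. With shGas41-1, 6 of the 10 genes differed, beside 44.9% of 19684 genes, and with shGas41-2, 5 of the 10, beside 41.4%, shares not far from those of genes at large. Pmaip1 differed most, by -3.72 (SE 0.40, FDR 1.9e-05) and -3.51 (SE 0.42, FDR 5.0e-05) on the log2 scale for shGas41-1 and shGas41-2. For Cdkn1a the difference was -1.76 (SE 0.26, FDR 1.9e-04) and -1.27 (SE 0.27, FDR 0.00272). Both genes were lower in KD cells and higher in EBs than in the respective controls.

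In the other direction were Mdm2, with differences of 1.32 (SE 0.26, FDR 0.0015) and 1.07 (SE 0.27, FDR 0.00782), Bax, with 1.12 (SE 0.17, FDR 2.6e-04) and 1.02 (SE 0.18, FDR 7.3e-04), and Phlda3, with 0.84 (SE 0.20, FDR 0.00563) and 0.71 (SE 0.21, FDR 0.0187). Ccng1 differed for shGas41-1 (0.75, SE 0.27, FDR 0.0377) and was at 0.43 (SE 0.28, FDR 0.242) for shGas41-2. No library was left out of these tests. Without EB day 0 replicate 3 the EB changes of Phlda3 and Ccng1 were -0.32 and -0.23. The Ccng1 change with shGas41-1 was 0.35, and 0.12 without replicate 3 of shGas41-1. For Trp53 the differences were 0.39 (95% interval -0.13 to 0.90) and 0.53 (95% interval -0.01 to 1.06). Zmat3 (-0.67 and -0.59), Bbc3 (-0.59 and -0.56) and Sesn2 (0.34 and 0.46) did not pass the test.

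Undifferentiated controls were sequenced with both experiments, which allowed their comparison. At an FDR of 0.05 or less 0 of the 10 genes differed between EB day 0 and shNT, where 0.386% of 19684 genes did in edgeR's quasi-likelihood test. Without adjustment 5 were higher at a p under 0.05, and DESeq2 called Ccng1 and Zmat3 higher (adjusted p = 0.0111 and 0.00823). Of the 19684 genes 3519 had an unadjusted p under 0.05 in either direction, and DESeq2 called 599 of 16579 higher. Zmat3 was 1.74-fold (log2 difference 0.80, SE 0.19, FDR 0.0885) and Ccng1 1.69-fold (0.76, SE 0.19, FDR 0.0947) higher at EB day 0. Mdm2, Sesn2 and Phlda3 had log2 differences of 0.48, 0.60 and 0.42, larger than any KD change of these 3 genes. Levels at EB day 6 are therefore read against EB day 0 alone.

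Other targets of p53 outside the 10 members were taken from a list of 35 genes, of which 33 matched the tables and were tested. With shGas41-1, 4 rose and 4 fell, and with shGas41-2, 2 rose and 2 fell, to be read against the shares of all genes given with the members. The median log2 fold change of the 33 was -0.05 and -0.02. Rrm2b, the p53-inducible subunit of ribonucleotide reductase, rose most, from 136, 147 and 98.2 CPM in shNT to 364, 307 and 524 CPM with shGas41-1 and 378 and 412 CPM with shGas41-2 (3.18-fold, FDR 0.00338, and 3.12-fold, FDR 0.00156). It was thus higher in every KD library, while Cdkn1a was lower in every one. Plk2, a polo-like kinase, rose 1.73-fold (FDR 0.0106) and 1.48-fold (FDR 0.0428). Its KD levels were between 22.2 and 26.9 CPM, and the undifferentiated EB day 0 libraries held 22.9 and 40.2 CPM. Plk2 was also called higher at EB day 0 than in shNT.

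Gls2, a mitochondrial glutaminase, fell 2.51-fold with shGas41-1 (FDR 0.00231) and 1.97-fold with shGas41-2 (FDR 0.00372), from 13.8, 14.6 and 15.1 CPM to between 5.19 and 7.51 CPM in the KD libraries. Gdf15, a secreted stress cytokine, fell 2.56-fold (FDR 0.00304) and 1.7-fold (FDR 0.0286). Trp53inp1 (1.49-fold, FDR 0.0204) and Ei24 (1.4-fold, FDR 0.0187) rose, and Fdxr (1.45-fold, FDR 0.0475) and Psrc1 (1.32-fold, FDR 0.0439) fell with shGas41-1, without a call with shGas41-2. Trp53inp1 was at 182, 155 and 199 CPM with shGas41-1, below the 210 and 313 CPM of the undifferentiated EB day 0 libraries. It was also called higher at EB day 0 than in shNT. In EBs 4 of the 33 rose and 16 fell, beside 30.5% and 28.4% of all genes. Ddit4, an mTORC1 inhibitor, rose 7.81-fold (FDR 2.0e-04), and Ercc5 and Apaf1 rose 1.81-fold and 1.37-fold. The largest falls there were those of 9030617O03Rik, now named Dglucy (187-fold, FDR 1.0e-05), Gdf15 (24.7-fold, FDR 1.0e-04) and the kinase gene Plk3 (4.88-fold, FDR 4.4e-05). At EB day 6 Dglucy was at 0.0756 and 0.198 CPM and Gdf15 at 0.242 and 0.228 CPM. The size of these falls is uncertain at such low levels.

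**Figure D3:**
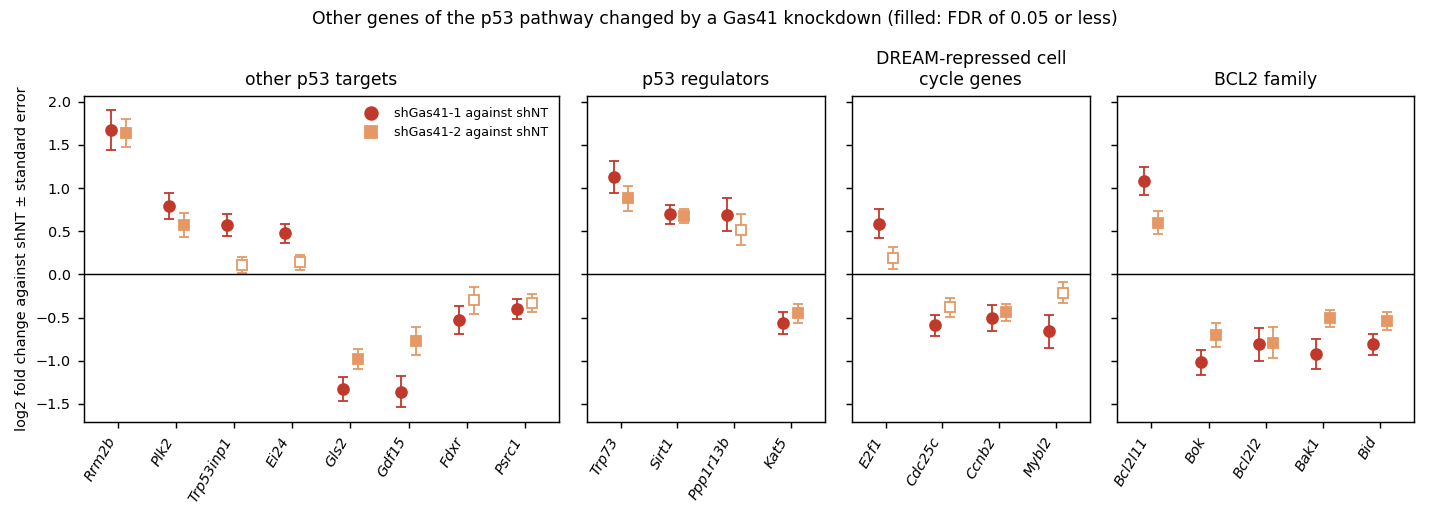
Log2 fold change against shNT ± standard error with shGas41-1 (circles) and shGas41-2 (squares) for listed genes of the p53 pathway that passed the test in at least 1 KD, at most 4 higher and 4 lower in each list; filled symbols have an FDR of 0.05 or less. Rrm2b is the highest at 1.67 and 1.64, and Gls2 and Gdf15 are the lowest of the p53 targets.

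Of 21 regulators and relatives of p53, 20 were tested in each KD, with 3 higher and 1 lower with shGas41-1 (10.8% and 7.73% of all genes), and 2 higher and 1 lower with shGas41-2 (5.94% and 3.97%). Sirt1, a deacetylase of p53, went from 136, 136 and 141 CPM in shNT to between 210 and 231 CPM in the 5 KD libraries, a rise of 1.63-fold (FDR 0.00481) and 1.61-fold (FDR 0.00369). Trp73, a p53 relative, rose 2.19-fold (FDR 0.00626) and 1.84-fold (FDR 0.0142) from a low level of 3.2 ± 0.202 CPM (SD, n = 3). The undifferentiated EB day 0 libraries, at 6.84 and 7.73 CPM, lay within the KD range of 5.34 to 7.86 CPM. Trp73 was also called higher at EB day 0 than in shNT. Kat5, the acetyltransferase Tip60, which shares complexes with Gas41, fell 1.48-fold (FDR 0.0175) and 1.37-fold (FDR 0.0401). Ppp1r13b, a p53 cofactor of the ASPP family, rose 1.62-fold with shGas41-1 (FDR 0.0344) and had a 1.43-fold higher level with shGas41-2 (FDR 0.101).

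In EBs 5 of the 21 regulators rose and 7 fell, near the 30.5% and 28.4% of all genes. Mdm4, which with Mdm2 restrains p53, fell from 137 and 136 CPM to 57 and 46.7 CPM, 2.67-fold (FDR 1.1e-04), in the same libraries in which Mdm2 fell. Cdkn2a and Sirt1 fell 2.12-fold (FDR 0.00431) and 1.74-fold (FDR 2.7e-04). Trp53bp1 and Ppp1r13l rose 1.8-fold (FDR 3.2e-04) and 1.77-fold (FDR 0.00251). Trp63 was at 0 and 0.0303 CPM at day 0 and 0.197 and 0.259 CPM at day 6, a 14-fold rise (FDR 0.0122) at very low levels.

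Of 14 cell cycle genes that p53 is known to repress through p21 and the DREAM complex, 3 fell and 1 rose with shGas41-1 and 1 fell with shGas41-2, beside 7.73%, 10.8% and 3.97% of all genes. Ccnb2, cyclin B2, fell with both (1.41-fold, FDR 0.0474, and 1.35-fold, FDR 0.0377). Cdc25c (1.51-fold, FDR 0.0138) and Mybl2 (1.58-fold, FDR 0.0426) fell and E2f1 rose (1.51-fold, FDR 0.046) with shGas41-1 alone past the threshold. The median log2 fold changes of the list were -0.25 and -0.12, against 0.02 and -0.01 over all genes. In EBs, where 30.5% of all genes rose and 28.4% fell, 2 rose (Bub1, 1.43-fold, FDR 0.00178, and Foxm1, 1.28-fold, FDR 0.00953) and 5 fell, led by Mybl2 (5.89-fold, FDR 2.6e-05), Birc5 (1.62-fold, FDR 3.9e-04) and E2f1 (1.49-fold, FDR 0.00557).

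Replicate 3 of shGas41-1 was also extreme for some of these listed genes, such as Rrm2b at 524 CPM, Mybl2 at 256 CPM and Bak1, a partner of Bax, at 32.4 CPM. Without it the log2 fold change with shGas41-1 was 1.41 for Rrm2b (FDR 0.00223), -0.49 for Mybl2 (FDR 0.0248) and -0.76 for Bak1 (FDR 0.00344). Of the 21 listed pathway and BCL2 family genes named for a KD, 1 lost its call with shGas41-1 without that library, Fdxr (-0.55, FDR 0.0524).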

How the data were processed

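The authors prepared the libraries with the TruSeq RNA Sample Preparation Kit v2, which does not keep strand, mapped reads to mm9 with TopHat2 (2.0.10 in the submitters' processing notes) and counted reads per gene with htseq-count. The deposited values used here are these counts, whole numbers without normalization. Log2 fold changes, p-values and FDRs of the authors' own comparisons were not used, and the 15 ChIP-seq samples were not analysed here.

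Counts were tested in R 4.3.3 with edgeR 4.0.16 (filterByExpr with a minimum count of 10 and minimum total of 15, TMM, glmQLFit and glmQLFTest, Benjamini-Hochberg adjustment over all tested genes). Genes with an FDR of 0.05 or less were called, and 2-fold calls also needed an absolute log2 fold change of 1. Each comparison was fitted on its own libraries. The hairpins were compared in a fit of the 8 KD and control libraries, and KD changes were set against EB changes in 1 fit of 12. Alternatives were DESeq2 1.42.0 and other scalings, filters and thresholds. Each hairpin against shNT and EB day 6 against EB day 0 were also run with edgeR's exact test and in a fit over all libraries. The same comparisons were run with the replicate number as a block and with each library left out in turn. Scripts were tested on simulated counts.

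The members and the gene lists were chosen with earlier results of these data known. Named list genes were at most 4 higher and 4 lower past the threshold in a KD, by the mean log2 fold change of both, and at most 3 higher and 3 lower in EBs. Of 35 other p53 targets, Sco2 and Trp53cor1 were not matched. The 10 members share no exon with another gene in the GENCODE annotation of mm9, from which positions and exon lengths came. Columns named ESC in the EB table were read as EB day 0. The paper's methods describe its experiments as made with biological repeats, but the labels do not say which libraries were separate cultures or infections, so p-values measure the spread between these libraries, which may be technical.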

Additional observations from a re-analysis of the deposited data

How the results depend on the processing

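Of the members called lower with shGas41-1 (2), 1 was left at FDR 0.01 and with the replicate block, and between 1 and 2 when 1 library was left out. Cdkn1a stayed called in each of these, and the one lost was Pmaip1. The fit over 12 libraries gave 3 lower, Zmat3 (-0.53, FDR 0.041) among them. With shGas41-2 (0 called), 1 was lower at FDR 0.1, without a count filter and with library size scaling (Cdkn1a), 2 with DESeq2 and with the exact test, and between 0 and 3 with 1 library left out, the highest without shNT replicate 1 (Cdkn1a, Pmaip1, Zmat3). The replicate block gave 4 lower (Cdkn1a -0.42, Bbc3 -0.29, Pmaip1 -0.46, Zmat3 -0.27) and 1 higher (Sesn2 0.28). In EBs 3 of 5 stayed lower at FDR 0.01, and between 3 and 6 with 1 library left out. Sesn2 was also called lower with library size scaling (FDR 0.0227) and the block (FDR 0.0179), and Ccng1 was not called in the fit over 12 libraries (FDR 0.116). At EB day 0 against shNT, 2 were higher at FDR 0.1 and with DESeq2. The labels do not say whether libraries of the same number were paired. Deviations of same-numbered libraries from their group means correlated at 0.026, 0.126 and -0.313 for shGas41-1, 0.275 and 0.187 for shGas41-2 and 0.0554 in EBs. Differently numbered libraries were not set beside them, so these values do not settle the pairing. The block took the calls over all genes from 1971 higher and 1412 lower to 1107 and 442 with shGas41-1, and from 1094 and 730 to 3536 and 3630 with shGas41-2.

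Uncalled values changed sign as follows. Trp53 was at 0.06 with shGas41-1 without its replicate 3, and as low as -0.24 without its replicate 2, and with shGas41-2 at -0.06 with library size scaling and -0.04 without shGas41-2 replicate 2 or shNT replicate 1, and at most 0.09 without shNT replicate 3. Sesn2 with shGas41-1 was at -0.13 without its replicate 2 and -0.04 without shNT replicate 1, and at most 0.30 without its replicate 3. With shGas41-2, Mdm2 was at -0.05 with library size scaling, -0.04 with the block or without shNT replicate 3 and -0.01 without shGas41-2 replicate 1, and Ccng1 at -0.06, -0.09, -0.08 and -0.02 under library size scaling, the block and leaving out those libraries. Bbc3 in EBs was at -0.09 without EB day 0 replicate 2 and 0.59 without replicate 3. The fibroblast marker Thy1 with shGas41-2 was at 0.11 with the block and without shNT replicate 3. Library size scaling moved the median of all genes from 0.02 to -0.06 with shGas41-1, from -0.01 to -0.09 with shGas41-2 and from 0.00 to -0.09 in EBs.

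Counts of other listed genes depended on the setting, and the cause was not tested. Calls over all genes moved as well. At FDR 0.01 and FDR 0.1 they were 757 and 2850 higher and 359 and 2346 lower with shGas41-1. For shGas41-2 they were 335 and 1884 higher and 82 and 1513 lower. For EBs they were 4068 and 6227 higher and 3534 and 5960 lower. The ranges of the lists are to be read beside these. Other p53 targets ranged from 1 to 5 higher and 2 to 4 lower with shGas41-1, 1 to 7 higher and 0 to 5 lower with shGas41-2, and 2 to 5 higher and 10 to 18 lower in EBs. Regulators ranged from 2 to 3 higher and 0 to 3 lower, 0 to 4 higher and 0 to 6 lower, and 3 to 7 higher and 2 to 8 lower in the same order. DREAM-repressed genes ranged from 0 to 1 higher and 0 to 6 lower, 0 to 2 higher and 0 to 5 lower, and 0 to 2 higher and 2 to 5 lower. The BCL2 family ranged from 1 to 2 higher and 3 to 5 lower, 0 to 3 higher and 0 to 6 lower, and 2 to 5 higher and 3 to 5 lower. Of 1830 values of single genes under alternatives, 1601 kept direction and side of the threshold, 167 lost and 45 gained the call, and 17 changed sign. Where leaving out a library left a group with 1, that library was assumed to vary like the other group. Groups of 2 or 3 libraries limit what could be called, and small changes of low genes may be missed.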

Other observations

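The wider BCL2 family sets the threshold of apoptosis together with Bax, Bbc3 and Pmaip1. Of 12 listed members, 1 rose and 4 fell with each hairpin, with medians of -0.13 and -0.02 on the log2 scale. Of all tested genes 10.8% rose and 7.73% fell with shGas41-1 and 5.94% and 3.97% with shGas41-2, with medians of 0.02 and -0.01. Bak1, the partner effector of Bax, went from 82.6, 78.6 and 84 CPM in shNT to 50.8, 45 and 32.4 CPM with shGas41-1 and 61.6 and 52.8 CPM with shGas41-2, a fall of 1.89-fold (FDR 0.0084) and 1.42-fold (FDR 0.0255). The BH3-only gene Bid fell 1.76-fold (FDR 0.00399) and 1.46-fold (FDR 0.0187). Bok, a Bax-like gene, fell 2.03-fold (FDR 0.00314) and 1.63-fold (FDR 0.0227), and Bcl2l2, an inhibitor of apoptosis, fell 1.75-fold (FDR 0.0223) and 1.73-fold (FDR 0.0364). The single gene that rose was Bcl2l11, which encodes the BH3-only protein Bim, by 2.11-fold (FDR 0.00399) and 1.52-fold (FDR 0.0319). Genes that promote apoptosis were thus found on both sides.

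In EBs 4 of the 12 rose and 4 fell, near the 30.5% and 28.4% of all genes. Bcl2, an inhibitor of apoptosis, rose 7.03-fold (FDR 6.7e-05), Bik 3.09-fold (FDR 0.00758) and Bcl2l11 2.89-fold (FDR 4.9e-05). Hrk fell 2.57-fold (FDR 0.00197), Bid 1.61-fold (FDR 8.1e-04), and Mcl1, the protein that Noxa neutralises, 1.92-fold (FDR 3.4e-04), from 420 and 490 CPM to 245 and 236 CPM, in the libraries in which Pmaip1 rose 6.21-fold. Among the marker lists, Klf4 fell with both hairpins (2.19-fold, FDR 0.00554, and 1.57-fold, FDR 0.0412) and Esrrb with shGas41-1 (2.05-fold, FDR 0.0204), the other 5 pluripotent cell markers were not called in either KD, and Fgf5 and Gata6 rose with shGas41-1 at levels below 1 CPM (FDR 0.0388 and 0.0188), Fgf5 with an FDR of 0.0528 without replicate 3. Thy1, on the fibroblast list, fell 2.15-fold with shGas41-1 (FDR 0.0109).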
